A study of Sus scrofa with 8 samples.

Results

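The genes described here are the keratins of simple epithelia (KRT7, KRT8, KRT18 and KRT19), the keratins of basal and stratified epithelia (KRT5, KRT14, KRT15 and KRT17), the keratin KRT23 and the basal transcription factor TP63. They were taken from a deposited expression table by gene name. Of the 10 named genes, 9 have an entry with that name among the 25578 entries of the table, and KRT14 was not analysed here. All 9 entries are among the 19346 that passed the filter on low counts. KRT5 and KRT17 could pass only through the last stage, where they are high. Passing, and calls that rest on that stage, are therefore no finding about them.

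Pig (Sus scrofa) cells were followed by sequencing of messenger RNA through a differentiation in 4 stages, with 2 libraries each. They are pluripotent stem cells (PSC), definitive endoderm (DE, the layer that gives rise to gut and lung), anterior foregut endoderm (AFE, the forward gut segment that forms airway and gullet) and lung progenitor organoids (LPO). All stages share the species and the library protocol, and for cell line, culture days and factors the sources used here give nothing. Since the labels do not state whether both libraries of a stage had cultures of their own, the p-values describe the spread between these samples only, and that spread may be technical.

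Keratins are the intermediate filament proteins of epithelial cells, and a filament is built from pairs of a type II and a type I keratin. KRT8 (type II) and KRT18 (type I) form the main pair of simple, single-layered epithelia, whereas KRT5 (type II) with KRT14 or KRT15 (type I) marks the basal cells that lie on the basement membrane of stratified and airway epithelium. TP63 encodes p63, a transcription factor that maintains basal cells in mouse and human epithelia, the airway among them.

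Deposited counts per library summed to between 36004372 and 67566269, and since low counts gathered at 4, 8 and 12, about 4 counts stand for 1 read pair. Stage markers followed the labels in part. POU5F1, a pluripotency factor, had 3063 and 3457 FPKM (fragments per kilobase of transcript and per 1e6 fragments) in PSC. It still had 259 and 253 FPKM in DE. SOX17, an endoderm factor, had 91.7 and 83.0 FPKM in DE. NKX2-1, the factor of lung and thyroid progenitors, was at 0 in PSC and DE. It had 7.94 and 7.62 FPKM in AFE and 18.7 and 18.9 FPKM in LPO. SFTPC, the surfactant gene of alveolar cells, reached 0.360 and 0.570 FPKM in LPO only. SFTPB, another surfactant gene, went the other way, with 7.59 and 7.09 FPKM in AFE and 3.68 and 3.32 FPKM in LPO. FPKM summed to 345563 and 347824 in LPO, against 439098 to 467008 in the other libraries, so an FPKM level in LPO is a larger share of its library than the same FPKM elsewhere. The table is per gene, so isoforms of TP63 are not told apart. The sources used here do not say how reads shared by near-identical keratins were assigned, and values of single keratins are uncertain to that extent.

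Over the 4 stages the keratin classes differed in course, with exceptions in each. KRT8, KRT18 and KRT19 were highest in DE and fell at each later step. In contrast, KRT5, KRT17, KRT23 and TP63 were at or close to 0 in PSC and DE, low in AFE and highest in LPO. KRT15, a basal keratin, was seen from DE on, and its rise from AFE to LPO was not called. KRT7, although a keratin of simple epithelia, was also highest in LPO. By the quasi-likelihood F test 9 of 9 members were called as differing among the stages, against 79.2% of all tested genes. KRT5 and KRT17 could be tested only through their level in LPO, so their calls are no separate evidence. DESeq2's likelihood ratio test called 7 of 9, without KRT5 (adjusted p = 0.147) and KRT17 (0.0862). The share of all genes that it called is not given here. Throughout, a gene is called at an adjusted p (edgeR quasi-likelihood test, Benjamini-Hochberg over 19346 genes) under 0.05, and test levels are counts per 1e6 counts after TMM scaling (CPM), given as mean ± SD with n = 2. With 2 libraries against 2, the smallest p that an exact permutation test allows is 0.333, so the tests rest on the fit across all genes.

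**Figure D1:**
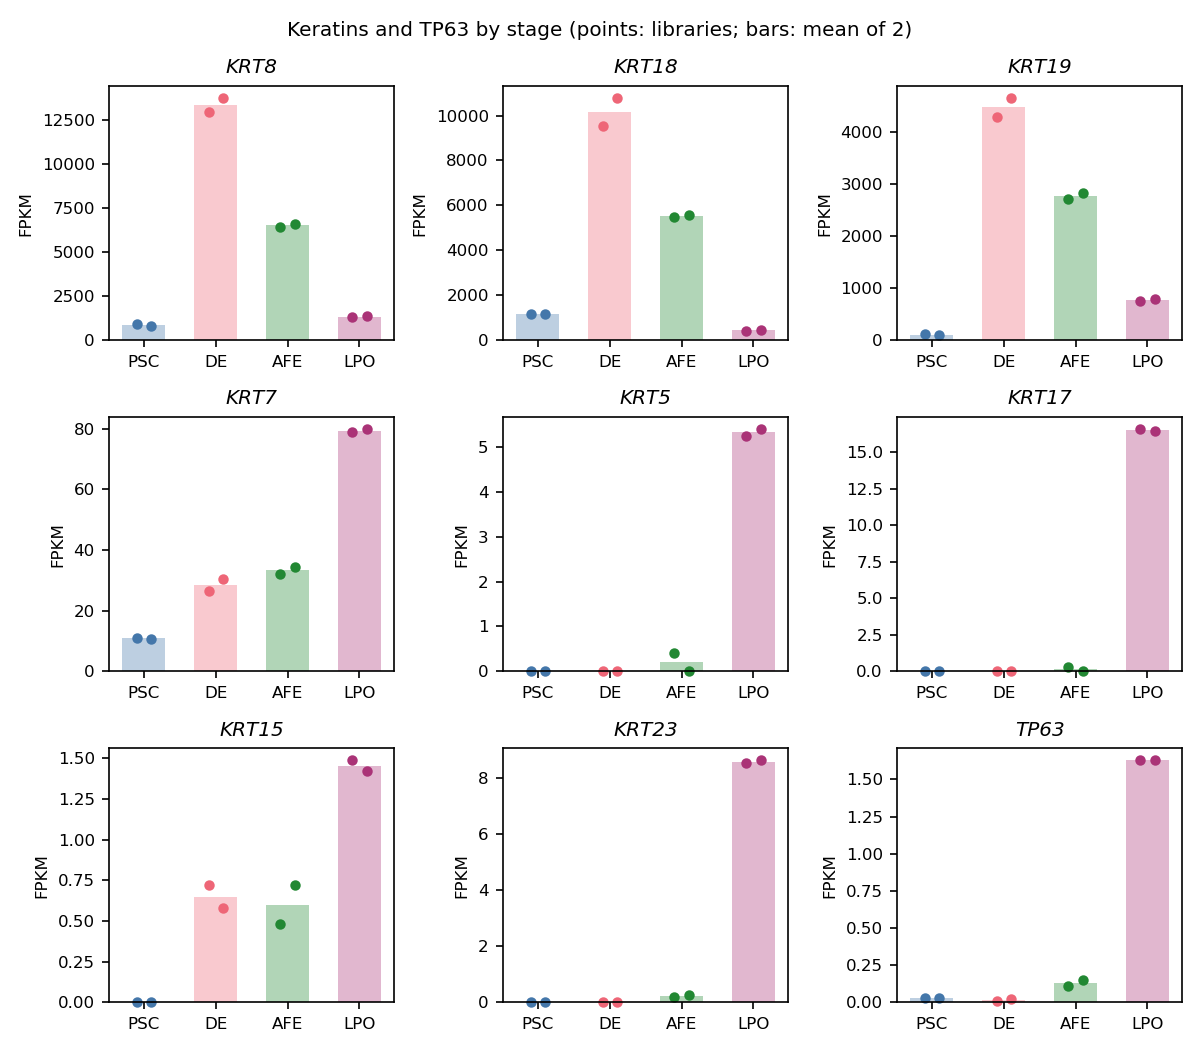
Deposited FPKM (linear axis, a scale of its own in each panel) of the 9 members by stage, with a point per library and a bar at the mean of 2. KRT8, KRT18 and KRT19 peak in DE, whereas KRT7, KRT5, KRT17, KRT15, KRT23 and TP63 are highest in LPO.

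KRT8, the type II keratin of simple epithelia, lies on chromosome 5 at 18167553 to 18180404 on the minus strand, in the coordinates of the deposited table, with the genome build unstated in the sources used here. Its FPKM was 933 and 841 in PSC, 12974 and 13738 in DE, 6415 and 6622 in AFE, and 1316 and 1358 in LPO. The counts behind these levels were 77306 and 59724 in PSC, 1600724 and 1675366 in DE, 865854 and 878937 in AFE, and 165150 and 169597 in LPO. No stage overlapped another, and KRT8 ranked 1 of all entries by FPKM in both DE libraries, 4 in both AFE libraries, 26 in both LPO libraries, and 79 and 89 in PSC. On the CPM scale it averaged 28519 ± 1181 in DE and 1846 ± 101 in PSC, a 15.4-fold rise (adjusted p = 2.9e-08). It fell 1.98-fold at the next step (14394 ± 370 CPM in AFE, log2 change -0.99, SE 0.0526, adjusted p = 1.1e-05) and 6.86-fold at the last (2097 ± 53.4 CPM in LPO, log2 change -2.78, SE 0.0557, adjusted p = 1.5e-07).

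KRT18, the type I partner of KRT8, lies next to it on chromosome 5 at 18217691 to 18221429 on the plus strand. Its FPKM was 1192 and 1164 in PSC, 9523 and 10773 in DE, 5480 and 5566 in AFE, and 430 and 464 in LPO. The counts were 75741 and 63328 in PSC, 900514 and 1006937 in DE, 566864 and 566273 in AFE, and 41345 and 44373 in LPO. KRT18 thus had its lowest level in LPO, below both PSC libraries, and no stages overlapped. It was 8.83-fold higher in DE than in PSC (16608 ± 1462 and 1880 ± 1.99 CPM, adjusted p = 1.1e-07), 1.78-fold lower in AFE than in DE (9347 ± 134 CPM in AFE, adjusted p = 6.6e-05) and 17.4-fold lower in LPO than in AFE (537 ± 30.4 CPM in LPO, log2 change -4.12, SE 0.0742, adjusted p = 1.4e-07). An entry on the opposite strand overlaps KRT18 and held 0 to 18 counts per library.

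KRT19, a small type I keratin without a tail domain, lies on chromosome 12 at 21115448 to 21119107 on the plus strand. Its FPKM was 117 and 106 in PSC, 4294 and 4648 in DE, 2713 and 2821 in AFE, and 755 and 792 in LPO. The counts were 8144 and 6282 in PSC, 443341 and 474347 in DE, 306467 and 313401 in AFE, and 79340 and 82806 in LPO. Unlike KRT18, its LPO libraries stayed above both PSC libraries. KRT19 rose 41.1-fold in DE against PSC (7989 ± 455 and 194 ± 10.9 CPM, adjusted p = 2.9e-08), fell 1.56-fold in AFE against DE (5114 ± 158 CPM in AFE, adjusted p = 0.00018) and fell 5.03-fold in LPO against AFE (1016 ± 37.5 CPM in LPO, log2 change -2.33, SE 0.0646, adjusted p = 2e-07). Of all counts, KRT8, KRT18 and KRT19 together held 0.382% and 0.359% in the PSC libraries, 4.72% and 5.11% in DE, 2.57% and 2.64% in AFE, and 0.452% and 0.472% in LPO.

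KRT7, the type II keratin of ducts, glands and lung epithelium, lies on chromosome 5 at 17555728 to 17570581 on the plus strand. Its FPKM was 11.1 and 10.8 in PSC, 26.4 and 30.5 in DE, 32.3 and 34.4 in AFE, and 78.8 and 79.8 in LPO. The counts were 788 and 655 in PSC, 2789 and 3186 in DE, 3726 and 3911 in AFE, and 8465 and 8529 in LPO. Every stage lay above the one before it without overlap, in contrast to the other simple keratins. The rise of 2.67-fold in DE against PSC passed the test (52.0 ± 5.36 and 19.5 ± 0.0603 CPM, adjusted p = 1.1e-05), and so did the rise of 1.69-fold in LPO against AFE (106 ± 1.28 and 63 ± 3.11 CPM, log2 change 0.76, SE 0.0933, adjusted p = 2e-04). The step between them did not, with a log2 change of 0.28 (SE 0.0933, adjusted p = 0.0533) in AFE against DE, and it passed with DESeq2's Wald test (adjusted p = 0.0416), with counts divided by 4 (0.0355) and without 1 PSC library (0.0483 and 0.0492) or the second DE library (0.0289). KRT7 stayed low beside KRT8, at 0.0599 and 0.0588 of its FPKM in LPO and at 0.00204 and 0.00222 of it in DE.

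Trophoblast is another epithelium rich in KRT7, KRT8 and KRT18. Of 8 genes that mark it 5 rose in DE against PSC and 1 fell, where 30.8% of all tested genes were higher and 23% lower. Their summed level was 324 and 347 CPM in DE against 60.5 and 57.3 CPM in PSC, with none of the 8 at 0 in DE. In LPO the sum was 63.2 and 58.6 CPM, against 215 and 236 CPM in AFE. TEAD4 averaged 53.6 CPM in PSC and 9.81 CPM in LPO, so the similar sums of PSC and LPO hide other changes. Against PSC, 6 of the 8 genes were higher in LPO and 1 was lower, where 41.5% and 28.8% of all tested genes were. Their part in the keratin levels was not tested. In these bulk samples, fewer cells of a type and less RNA per cell cannot be told apart.

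The make-up of the simple keratins shifted along the course. By share of the summed FPKM of the 8 keratins, KRT18 had 53.9% ± 1.38 in the PSC libraries, 36.2% ± 0.988 in DE, 37.2% ± 0.302 in AFE and 16.7% ± 0.390 in LPO (SD, n = 2). KRT19 held 5.10% ± 0.160 of it in PSC libraries, 16.0% ± 0.0623 in DE, 18.6% ± 0.157 in AFE and 29.0% ± 0.104 in LPO. KRT8 stayed the largest or second largest with 40.5% ± 1.23 in PSC libraries, 47.7% ± 0.929 in DE, 43.9% ± 0.141 in AFE and 50.1% ± 0.395 in LPO, and KRT7 went no higher than 2.97% ± 0.0635, in LPO. These shares are a description with no test. The FPKM ratio of KRT8 to KRT18 was 0.782 and 0.723 in PSC, 1.36 and 1.28 in DE, 1.17 and 1.19 in AFE, and 3.06 and 2.93 in LPO. The ratio of all type II to all type I keratins among the members moved less, with 0.721 and 0.671 in PSC, 0.941 and 0.893 in DE, 0.787 and 0.793 in AFE, and 1.16 and 1.13 in LPO. KRT19 overtook KRT18 in LPO, where their FPKM ratio was 1.76 and 1.71, against 0.495 and 0.507 in AFE.

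**Figure D2:**
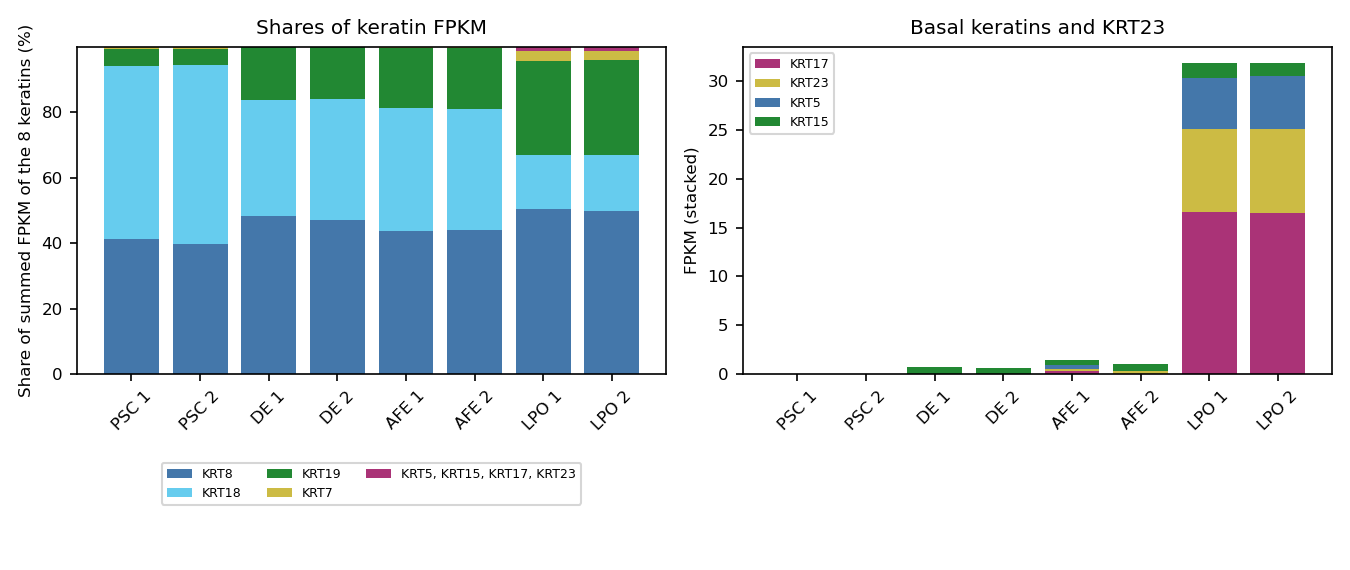
Left, share of the summed FPKM of the 8 keratins (percent) held by each in every library. Right, stacked FPKM of KRT17, KRT23, KRT5 and KRT15 in the same libraries. KRT18 shrinks to 16.7% in LPO while KRT19 grows to 29.0%, and the basal keratins and KRT23 stand out in LPO.

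TP63 lies on chromosome 13 at 127116361 to 127347068 on the plus strand. Its FPKM was 0.03 and 0.03 in PSC, 0.01 and 0.02 in DE, 0.11 and 0.15 in AFE, and 1.63 and 1.63 in LPO. The counts were 8 and 8 in PSC, 4 and 8 in DE, 52 and 72 in AFE, and 731 and 727 in LPO. PSC and DE lay under 12 counts in each library, the floor of 3 read pairs, so no fold is given between them, and AFE and LPO each stood clear of the stages before. TP63 was 9.79-fold higher in AFE than in DE (1.02 ± 0.249 and 0.105 ± 0.0502 CPM, adjusted p = 0.0012), with a 95% counting interval of 3.05 to 50.1 for so few reads in DE. In LPO it rose a further 8.91-fold over AFE (9.13 ± 0.0255 and 1.02 ± 0.249 CPM, log2 change 3.15, SE 0.389, adjusted p = 2e-04), and it stood 41.9-fold above PSC (counting interval 16.3 to 156, adjusted p = 1.7e-05). Counting intervals, floors and bounds cover counting error only.

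KRT5, the type II keratin of basal cells, lies on chromosome 5 at 17862051 to 17868402 on the minus strand. It was at 0 in both libraries of PSC and of DE, at 67 and 0 counts in AFE (0.400 and 0 FPKM), and at 806 and 824 counts in LPO (5.24 and 5.39 FPKM). The LPO libraries were close to each other and far above the rest, whereas the AFE libraries differed in whether KRT5 was seen at all. In LPO against AFE KRT5 was 18.7-fold higher (10.2 ± 0.228 and 0.547 ± 0.773 CPM, log2 change 4.21, SE 1.41, adjusted p = 0.045). That call was lost without either LPO library (adjusted p = 0.123 and 0.13) and with DESeq2's Wald test (0.427). The fold was 9.34 with the first AFE library alone and at least 51.0 with the second alone, counted against the floor. Against PSC, KRT5 was at least 31.2-fold higher in LPO (adjusted p = 0.0092).

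KRT17, a type I keratin of basal cells and of wounded or appendage epithelium, lies on chromosome 12 at 21024323 to 21029305 on the plus strand. Like KRT5 it was at 0 in PSC and DE and appeared in the same AFE library only, with 40 and 0 counts in AFE (0.290 and 0 FPKM) and 2133 and 2106 counts in LPO (16.6 and 16.5 FPKM). It was the most abundant of the basal keratins in LPO, with a similar gap to KRT5 in both libraries (FPKM ratio of KRT5 to KRT17 of 0.316 and 0.327). KRT17 rose 81.3-fold in LPO against AFE (26.6 ± 0.0620 and 0.326 ± 0.462 CPM, counting interval 43.6 to 168, adjusted p = 0.0034). The fold was 40.7 with the first AFE library alone and at least 133 with the second alone, and DESeq2's Wald test did not call it (adjusted p = 0.218). Against PSC it was at least 81.2-fold higher in LPO (adjusted p = 0.0015).

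KRT15, a type I keratin of basal cells, lies on chromosome 12 at 21124705 to 21130241, close after KRT19. Its counts were 0 and 0 in PSC, 83 and 65 in DE, 60 and 89 in AFE, and 173 and 164 in LPO, and its FPKM was 0 and 0, 0.720 and 0.580, 0.480 and 0.720, and 1.49 and 1.42 in the same order. KRT15 was therefore the only basal keratin seen in DE, where KRT19 beside it was at its peak, and the DE and AFE libraries overlapped. It was at least 3.94-fold higher in DE than in PSC (adjusted p = 0.00035). The step to LPO was 1.71-fold without overlap but was not called (2.11 ± 0.0656 CPM in LPO and 1.23 ± 0.357 CPM in AFE, log2 change 0.78, SE 0.499, adjusted p = 0.223), although limma on log2(FPKM + 1) called it (adjusted p = 0.000644). As a share of the KRT19 count, KRT15 had 0.0187% and 0.0137% in DE, 0.0196% and 0.0284% in AFE, and 0.218% and 0.198% in LPO. Whether reads of KRT19 contributed to KRT15 was not tested.

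KRT23, a type I keratin known from pancreatic and colorectal cells, lies on chromosome 12 at 21528155 to 21547062 on the plus strand. It was at 0 in PSC and DE, at 24 and 29 counts in AFE (0.210 and 0.250 FPKM) and at 916 and 923 counts in LPO (8.55 and 8.65 FPKM). Unlike KRT5 and KRT17, KRT23 was present in both AFE libraries. It was at least 2.09-fold higher in AFE than in DE (0.438 ± 0.0649 CPM in AFE, adjusted p = 0.0013), and it rose 26.3-fold in LPO against AFE (11.5 ± 0.139 and 0.438 ± 0.0649 CPM, log2 change 4.71, SE 0.385, adjusted p = 0.00012).

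**Figure D3:**
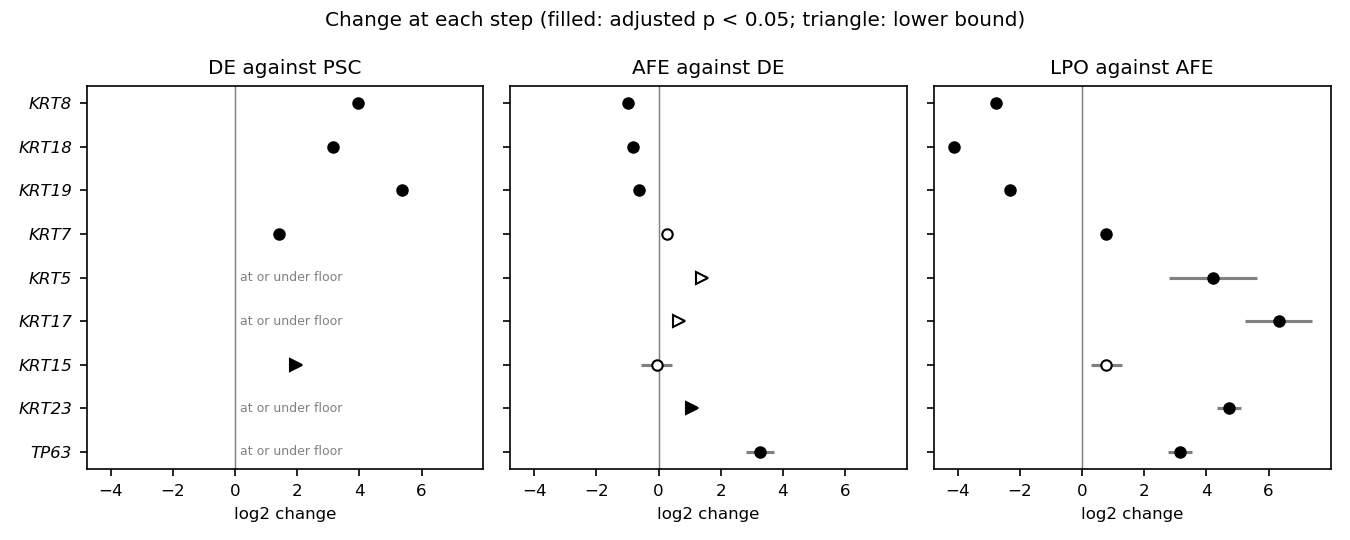
Log2 change of each member at the 3 successive steps with its standard error as a line (edgeR, 2 libraries a stage), filled where the adjusted p is under 0.05. Triangles are lower bounds where the earlier stage is at 0, and members at or under the floor in both stages carry no value. KRT8, KRT18 and KRT19 turn from gains to losses, while KRT7 stays above 0.

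Even at their peak the basal keratins were minor. KRT5, KRT15 and KRT17 summed to 0 FPKM in PSC, 0.720 and 0.580 FPKM in DE, 1.17 and 0.720 FPKM in AFE, and 23.3 and 23.3 FPKM in LPO. They made up 0.874% ± 0.0278 of the keratin FPKM in LPO, and KRT23 a further 0.322% ± 0.00714. The total of the 8 keratins was 2253 and 2121 FPKM in PSC, 26818 and 29190 FPKM in DE, 14642 and 15044 FPKM in AFE, and 2611 and 2726 FPKM in LPO. In keratin total LPO thus lay nearer to PSC than to DE or AFE, with another make-up.

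Across the members, DE against PSC had 5 genes higher, 0 lower and 4 not called, while 53.8% of all tested genes were called (30.8% higher and 23% lower). All 4 simple keratins were among the risers, with KRT15. AFE against DE had 2 higher (TP63 and KRT23), 3 lower (KRT8, KRT18 and KRT19) and 4 not called, against 35.3% of all tested genes called (17.9% higher and 17.4% lower). KRT5 and KRT17, listed in only 1 AFE library, were not called at that step (adjusted p = 0.0932 and 0.112).

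In LPO against AFE, 5 members were higher (KRT7, KRT5, KRT17, KRT23 and TP63), 3 were lower (KRT8, KRT18 and KRT19) and KRT15 was not called. The calls of KRT5 and KRT17 are no separate evidence, since these genes could be tested only through LPO. Of all tested genes 59.8% were called. That background was 30.2% higher and 29.6% lower, so 50.5% of the calls were higher, whereas with limma on log2(FPKM + 1) 66.9% were. The fall of the 3 simple keratins came with a rise of mesenchymal genes. Of 9 mesenchymal markers 8 were higher in LPO than in AFE and 0 were lower, beside that background, none was at 0, and their summed level was 8660 and 8905 CPM in LPO against 536 and 545 CPM in AFE. Over the same step EPCAM, an adhesion protein of epithelial cells, had 64.8 and 67.4 FPKM in LPO against 86.9 and 77.8 FPKM in AFE. CDH1, the epithelial cadherin, had 132 and 133 FPKM in LPO, against 75.7 and 73.5 FPKM in AFE. On the CPM scale of the mesenchymal sums, EPCAM averaged 285 in LPO and 500 in AFE. CDH1 averaged 491 CPM in LPO and 388 CPM in AFE, a smaller gap than in FPKM. The part of the mesenchymal genes in the keratin levels was not tested.

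Over the whole course, LPO against PSC, 8 members were higher and KRT18 was lower (3.50-fold, log2 change -1.81, SE 0.0674, adjusted p = 2.1e-07). Of all tested genes 70.3% were called (41.5% higher and 28.8% lower). KRT5 and KRT17, among the 8, could be tested only through LPO. KRT7 was 5.46-fold higher (adjusted p = 3e-07) and KRT19 5.23-fold higher (adjusted p = 6.3e-08). KRT23 was at least 35.2-fold higher (adjusted p = 2.2e-05) and KRT15 at least 6.45-fold higher (adjusted p = 0.00013). KRT8 was 1.14-fold higher on the CPM scale (log2 change 0.18, SE 0.0521, adjusted p = 0.014), below the median change of all genes of 0.49. The KRT8 call was lost with DESeq2 size factors (adjusted p = 0.237), with DESeq2's Wald test (0.245), with only the 4 libraries compared (0.276) and without either LPO library (0.0623 and 0.193).

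Keratin filaments are anchored at 2 kinds of junction. Their gene lists share the linker gene PLEC, and the difference between the lists was not tested. Hemidesmosomes tie the basal side of a cell to the basement membrane. The list holds 11 genes of this junction, its laminin and the basement membrane, with FRAS1 and FREM2 among the last. Of these 8 were higher in LPO than in AFE and 3 were lower (median log2 change 1.52, against 0.09 over all genes, of which 30.2% were higher and 29.6% lower). COL17A1, a collagen that spans the basal membrane, had 9.84 and 9.43 FPKM in LPO against 0.350 and 0.450 FPKM in AFE, a 17.1-fold rise in CPM (adjusted p = 1.4e-06). ITGB4, the integrin subunit of hemidesmosomes, had 14.8 and 15.4 FPKM in LPO against 1.49 and 1.39 FPKM in AFE (7.40-fold higher, adjusted p = 4e-07). DST, which links integrin to keratin, was 2.87-fold higher (adjusted p = 4.2e-06). The 3 that fell include another integrin subunit, ITGA6, which averaged 77.9 CPM in AFE and 46.5 CPM in LPO. The others were CD151 (110 CPM in AFE and 64.7 CPM in LPO) and FREM2 (84.0 CPM in AFE and 25.7 CPM in LPO). In ITGB4 the earlier step went the other way, 4.36-fold lower in AFE than in DE (adjusted p = 6.8e-06).

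Desmosomes are the spot junctions between cells that hold keratins at the side. Of 18 tested genes of desmosomes and keratin linkers 6 were higher in LPO than in AFE and 8 were lower (median log2 change -0.29), beside the same 30.2% and 29.6% of all tested genes. DSP, the plakin that binds keratin at the desmosome, was 2.36-fold lower (216 and 510 CPM on average in LPO and AFE, adjusted p = 3.6e-06), and PKP4, a plakophilin relative, was 2.16-fold lower (adjusted p = 5.8e-06). KRTCAP3, which is named for keratinocytes and not for a link to keratin, was 6.02-fold lower (adjusted p = 1e-06). PNN, a nuclear protein first assigned to desmosomes, was 1.85-fold higher (adjusted p = 1.6e-05). In DE against PSC 10 of the 18 were higher and 4 lower (30.8% and 23% of all tested genes), among them PPL, the plakin periplakin, at 7.20-fold higher (adjusted p = 5e-07) and PLEC, the linker plectin, at 6.34-fold higher (adjusted p = 3.7e-07).

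Of 20 relatives, regulators and targets linked to p63, 10 were higher in LPO than in AFE and 4 were lower (median log2 change 0.76), against 30.2% and 29.6% of all tested genes. KLF5, an epithelial transcription factor, had 68.5 and 68.5 FPKM in LPO against 2.22 and 1.96 FPKM in AFE (23.3-fold higher, adjusted p = 5.7e-07). ITCH, a ubiquitin ligase that targets p63, was 3.42-fold higher (adjusted p = 8e-06), and IGFBP3, a growth factor binding protein repressed by p63 in human cells, was 10.2-fold higher (adjusted p = 1.4e-05).

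Of 13 other markers of airway basal cells, outside the keratins and TP63, 4 were higher in LPO than in AFE, 4 were lower and 5 were not called (median log2 change 1.04). These counts are near the background of 30.2% higher and 29.6% lower. EGFR, the receptor for epidermal growth factor, was 17.0-fold higher (adjusted p = 2.8e-07) and the adhesion protein ICAM1 10.2-fold higher (adjusted p = 6.7e-07). AQP3, a water and glycerol channel, was 18.6-fold lower (adjusted p = 1.5e-07), and BCAM, a laminin receptor, was 4.30-fold lower (adjusted p = 2.5e-07). NGFR, the neurotrophin receptor by which airway basal cells are sorted, was chosen after its values were seen and had 2.88 and 2.97 FPKM in LPO against 4.01 and 4.51 FPKM in AFE (2.05-fold lower, adjusted p = 0.011).

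Of 5 tested genes of squamous differentiation 1 was higher in LPO than in AFE and 1 was lower. Of all tested genes 30.2% were higher and 29.6% lower, so these counts do not stand out. The riser was TMPRSS11D, an airway protease chosen after its values were seen, with 154 and 45 counts in LPO against 0 and 0 in AFE (adjusted p = 0.012). SFN, an adaptor protein of keratinocytes, was 3.50-fold lower (adjusted p = 2.4e-05). IVL, a protein of the cornified envelope, was at or under the floor in both stages. Of 14 genes of luminal and simple epithelium 6 were higher and 6 lower (median log2 change 0.10), beside 30.2% and 29.6% of all tested genes. The tight-junction claudins CLDN3 (10.3-fold, adjusted p = 3.9e-07), CLDN7 (4.14-fold, adjusted p = 1.8e-06) and CLDN4 (3.76-fold, adjusted p = 2.5e-07) were lower, as were KRT8 and KRT18, whereas TJP1, a scaffold of the same junction, was 2.30-fold higher (adjusted p = 4.4e-06).

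Of 44 further keratins sought by name 18 have an entry and 11 were tested. In LPO against AFE 3 were higher and 1 was lower, where 30.2% and 29.6% of all tested genes were. KRT80, a type II keratin found near desmosomes, had 11.4 and 11.5 FPKM in LPO against 1.09 and 0.820 FPKM in AFE (8.53-fold higher, adjusted p = 0.00051). KRT10, the type I keratin of differentiated epidermis, had 3.41 and 3.42 FPKM in LPO against 5.68 and 6.97 FPKM in AFE (2.61-fold lower, adjusted p = 7.4e-05). The other two, chosen after their values were seen, were KRT4, a type II keratin of the oesophagus, with 1.80 and 1.30 FPKM in LPO against 0.0200 and 0 FPKM in AFE, and KRT20, a type I keratin of the gut, with 0.110 and 0.170 FPKM in LPO against 0 in AFE.

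**Figure D4:**
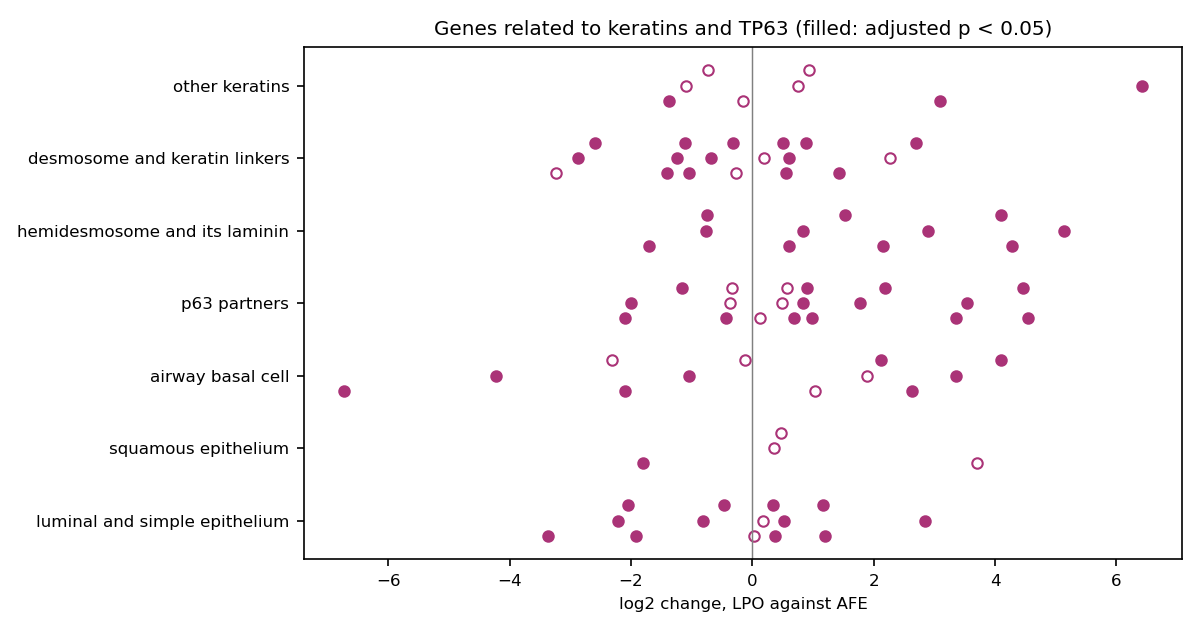
Log2 change in LPO against AFE (edgeR) of the genes in 7 lists related to keratins and TP63, a point per tested gene, filled where the adjusted p is under 0.05. Genes at 0 in AFE or at or under the floor in both stages are not drawn. The median change was 1.52 in the hemidesmosome list and -0.29 in the desmosome list, and their difference was not tested.

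The keratin members sit in gene clusters, KRT7, KRT5, KRT8 and KRT18 on chromosome 5 and KRT17, KRT19, KRT15 and KRT23 on chromosome 12. Neighbours did not always share a course. KRT19 and KRT15 are adjacent and peaked in DE and in LPO. KRT18, the one type I member on chromosome 5, rose and fell at the same steps as its type II neighbour KRT8. Their last fall differed in size, 17.4-fold for KRT18 and 6.86-fold for KRT8 in LPO against AFE.

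The genes closest in course to 4 of the members were ranked by the root mean square difference of centred log2 CPM over the 8 libraries among 12052 genes, where the libraries of a stage share that stage. For KRT8 these were CFAP45, a ciliary protein gene, with a difference of 0.320, then FAM110D, PKIG (an inhibitor of protein kinase A), COL18A1 (a basement membrane collagen) and the gene of carboxypeptidase M. For KRT7 they were MIA3, which serves collagen export, with 0.0834, then the Golgi protein GOLM1, the fucosyltransferase FUT8, the TNF receptor TNFRSF1A, and MFSD11. For KRT5 the closest was KRT17, with 0.687, then COL25A1, the angiotensin receptor AGTR2, SORCS3 and the lung and stomach claudin CLDN18. For TP63 they were the ephrin receptor EPHA7, with 0.432, then MGAT4C, SESN3, PAX9 (a foregut and pharyngeal transcription factor, whose entry overlaps a gene on the opposite strand) and the myosin kinase MYLK. The closest match of KRT7 thus differed by less than that of KRT5 or TP63. The measure depends on level and range, and KRT5 and TP63 were at or near 0 in PSC and DE. The values therefore do not rank how closely the courses are shared.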

How the data were processed

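Polyadenylated RNA was made into strand-marking (dUTP) libraries and sequenced as pairs, per the labels' protocols. Tools listed in the submitters' processing notes, without the step each served, are StringTie 2.1.6, HISAT2 2.2.1, cutadapt 1.9, edgeR and DESeq2. No genome build is given in the sources used here. The authors deposited 1 table with estimated counts per gene and library, which are whole numbers and were not rounded, and FPKM, a value the authors scaled by length and library. The table heads the PSC columns EPSC and the LPO columns Organoid, and all columns were matched through the sample titles.

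Genes passing filterByExpr (19346) were fitted with edgeR 4.0.16 in R 4.3.3 (TMM, glmQLFit on all 8 libraries, stage as group, 4 residual degrees of freedom) and tested with glmQLFTest at an adjusted p of 0.05. A stage at 0 was set to a floor of 3 read pairs (12 counts) per library, which is 0.150 to 0.357 CPM, and stages with at most 10 read pairs got a 95% counting interval. The fit was tested on simulated data. Alternatives were DESeq2 size factors, no filter, DESeq2 1.42.0, limma 3.58.1 on log2 FPKM with pseudocounts of 1 and 0.1, counts divided by 4, the replicate number as a block, only the 4 libraries compared, and each library left out. Figures used Python 3.11.15 and matplotlib 3.10.9.

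The members and gene lists were chosen with earlier results of these data known. Named genes are all members, up to 4 called genes per list with the smallest adjusted p and at least 5 FPKM in the higher stage, and the 5 genes closest in course to KRT8, KRT7, KRT5 and TP63 that reach 1 FPKM. Some genes that this rule names are not reported here. Other named genes were chosen after their values were seen, except stage markers. In read pairs, the median variance within a stage was 2.01 to 4.80 times the Poisson variance, so none was counted as a duplicate.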

Additional observations from a re-analysis of the deposited data

How the results depend on the processing

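Of the log2 changes of members recomputed under the alternatives, 488 kept their direction and side of the threshold, 9 gained a call, 9 lost one, and 4 changed sign or became 0. Depth limits the low members, since about 4 counts are 1 read pair and no fold is given where both stages lie at or under the floor. In AFE against DE, the log2 change of KRT15 was 0.11 without the first DE library and 0.20 without the first AFE library, against -0.06 with all libraries, in a range of -0.39 to 0.20. Those of KRT5 and KRT17 were 0 and 0 without the first AFE library, in which alone they were seen. Without the second AFE library they were 9.004 and 8.26, fitted values that are no bound, and both were called (adjusted p = 0.00348 and 0.00317). Genes called in that step numbered 4535 to 7894 when 1 library was left out, against 6838, with the fewest without the second AFE library. The called members numbered 5 to 7 there, 5 in DE against PSC, 7 to 8 in LPO against AFE and 8 to 9 in LPO against PSC.

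Shares of the keratin sum taken from CPM, which is not divided by length, were 46.8%, 53.7%, 49.8% and 55.1% for KRT8 and 47.7%, 31.2%, 32.3% and 14.1% for KRT18 in PSC, DE, AFE and LPO, and 1.02% for the basal keratins in LPO.

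DESeq2 size factors moved the median change of all genes by -0.16 in DE against PSC and -0.11 in LPO against PSC, and FPKM with a pseudocount of 1 moved it by 0.41 in LPO against AFE and 0.27 in LPO against PSC. Same-numbered libraries did not deviate together (Pearson r across genes, which are not independent, of -0.0136 to 0.00782 over the stage pairs). Such values cannot tell whether same-numbered libraries came from a shared run, which the labels do not state. With the replicate block the members called were 5, 5, 8 and 9 in the 4 comparisons and the genes called 9759, 6137, 10788 and 12596, and no member changed its call.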

Other observations

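Among the other intermediate filament genes, 8 of 12 tested were higher in LPO than in AFE and 2 were lower (median log2 change 1.11), where 30.2% of all tested genes were higher and 29.6% lower. VIM, the vimentin of mesenchymal cells, had 954 and 978 FPKM in LPO against 60.1 and 60.8 FPKM in AFE, and was 11.3-fold higher (adjusted p = 2.1e-07). It exceeded KRT18 and KRT19 in LPO but not KRT8 (1316 and 1358 FPKM), and it lay far below each of them in AFE. LMNB1, a nuclear lamin, was 3.25-fold lower (adjusted p = 1.7e-06), and LMNA, another nuclear lamin, 2.03-fold higher (adjusted p = 3.9e-05). In DE against PSC LMNA was 21.4-fold higher (adjusted p = 1.5e-07), beside the rise of KRT8, KRT18 and KRT19.

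The laminin chains LAMB3 and LAMA3, chosen after their values were seen, were also highest in LPO. LAMB3 had 42.3 and 43.1 FPKM in LPO, against 1.40 and 1.73 FPKM in AFE. LAMA3 had 10.8 and 10.8 FPKM in LPO, against 0.210 and 0.220 FPKM in AFE.

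The table holds 17 entries without a symbol in the keratin clusters that it annotates with intermediate or keratin filament terms. Together they had 29 and 33 counts in PSC, 137 and 147 in DE, 231 and 154 in AFE, and 489 and 458 in LPO. Their summed level did not exceed 4.11 FPKM in any library. No gene name is given to them.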
